A study of Mus musculus with 5 samples.

Results

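The ATF4 amino acid response genes and the tRNA synthetases coupled to them were examined in mouse bone marrow-derived macrophages, phagocytes raised from marrow in culture with M-CSF, a macrophage growth factor. The members were a list of 37 gene symbols, chosen for their known roles with earlier results of these data known. All 37 were found among the 20583 gene symbols of the deposited count table. A gene with several transcript rows was represented by the row with the highest mean count. Macrophages from NICcA mice (n = 2 libraries, numbered 2 and 3) were set against those from wild type mice, called WT here (n = 3 libraries, numbered 1 to 3). Mice of both genotypes were of C57BL/6 background and 7 to 8 weeks old, and the marrow cells of both had 25 ng/ml M-CSF for 7 days with no further treatment named in the labels. The labels do not spell out NICcA or say in which cells the allele acts. In earlier use the name stands for conditional expression of the intracellular domain of a Notch receptor. Whether each library came from its own animal or culture is not in the labels. The p-values therefore reflect library-to-library spread, part of which may be technical.

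ATF4 is a transcription factor of the integrated stress response. When amino acids run short, or when unfolded proteins, viral RNA or loss of haem are sensed, kinases phosphorylate the translation factor eIF2, which lowers translation in general and raises translation of the Atf4 mRNA. ATF4 protein, paired with C/EBP family partners, then binds C/EBP-ATF response elements and switches on enzymes of serine, asparagine and proline synthesis, amino acid transporters and aminoacyl-tRNA synthetases, which load amino acids onto their tRNAs. In activated macrophages the serine and one-carbon enzymes and the cystine and leucine transporters among these genes also feed glutathione and nucleotide synthesis.

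Promoter sequences are shown because the members are listed as targets of 1 factor. Of the 37 members, 30 had an entry in the RefSeq promoter table (build GRCm38.p6), which gives 250 bases before to 50 bases after each start site. Both strands were searched for the core of the C/EBP-ATF response element, spelled TGATGNAA or, in reverse complement, TTNCATCA. No other motif was searched. It was found for 13 of these 30 members, or 43.3%, against 305 of the 10582 tested genes with an entry, or 2.88%. Most members were listed because ATF4 is known to act on them, so the share is a description, and a match is not shown to be a bound site in these cells. The whole window is given for Asns, the asparagine synthetase gene, and Chac1, a glutathione-degrading enzyme gene, in gene orientation, with each match in capitals.

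Asns, chr6:7693160-7693459, minus strand: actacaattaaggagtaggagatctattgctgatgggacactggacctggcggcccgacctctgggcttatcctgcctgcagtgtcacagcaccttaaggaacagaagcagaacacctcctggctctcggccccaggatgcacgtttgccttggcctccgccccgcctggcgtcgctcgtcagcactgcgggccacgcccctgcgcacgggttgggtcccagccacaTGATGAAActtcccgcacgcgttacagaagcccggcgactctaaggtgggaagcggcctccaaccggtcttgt
Chac1, chr2:119350992-119351291, plus strand: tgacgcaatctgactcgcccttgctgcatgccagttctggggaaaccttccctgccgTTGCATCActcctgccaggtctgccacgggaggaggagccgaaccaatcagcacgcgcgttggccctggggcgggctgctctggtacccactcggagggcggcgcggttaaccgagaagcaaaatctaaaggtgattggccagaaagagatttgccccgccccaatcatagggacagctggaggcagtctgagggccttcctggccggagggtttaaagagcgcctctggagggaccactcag

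The other members with a match are shown as the match and its 20 bases on either side, in gene orientation. These members include genes that were higher, lower or overlapping between the genotypes in the results that follow. Among members with an entry, 7 of 17 higher ones and 6 of 13 lower or overlapping ones held a match. Matches are in capitals. Slc7a11 held 2 matches within its window, and Aars held 2 matches, of which the one upstream of the start site is shown.

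Trib3, chr2:152344019-152344066, minus strand: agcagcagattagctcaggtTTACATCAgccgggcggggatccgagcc
Slc1a4, chr11:20332690-20332737, minus strand: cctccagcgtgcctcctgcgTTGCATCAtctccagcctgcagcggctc
Gars, chr6:55037951-55037998, plus strand: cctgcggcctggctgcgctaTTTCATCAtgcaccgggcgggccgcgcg
Yars, chr4:129189886-129189933, plus strand: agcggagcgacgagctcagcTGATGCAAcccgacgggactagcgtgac
Iars, chr13:49682117-49682164, plus strand: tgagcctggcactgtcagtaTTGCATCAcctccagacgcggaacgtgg
Aars, chr8:111033710-111033757, plus strand: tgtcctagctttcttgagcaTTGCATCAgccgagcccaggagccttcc
Tars, chr15:11399646-11399693, minus strand: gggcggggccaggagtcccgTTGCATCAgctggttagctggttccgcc
Slc7a11, chr3:50443652-50443699, minus strand: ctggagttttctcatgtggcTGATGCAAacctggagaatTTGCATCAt
Nupr1, chr7:126625553-126625600, minus strand: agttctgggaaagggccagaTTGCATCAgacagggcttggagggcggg
Vldlr, chr19:27216800-27216847, plus strand: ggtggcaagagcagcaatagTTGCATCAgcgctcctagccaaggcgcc
Atf3, chr1:191183416-191183463, minus strand: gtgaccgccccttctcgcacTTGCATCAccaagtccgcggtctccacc

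Total counts over the 27457 transcript rows were 64870248 and 68110891 in the NICcA libraries and 57442309 to 76562905 in the WT libraries. Rows of the same gene can repeat the same counts, so these totals are sums over rows and not numbers of reads. Sampling error is small for all but the lowest members. CPM are counts per 1000000 counts of the library after scaling by edgeR's TMM factors. The library size was summed over the transcript rows that passed the filter on low counts. The 9 macrophage markers in the table included Csf1r and Lyz2. Their summed level was 11938 and 12508.5 CPM in NICcA, against 13807 to 20299.8 CPM in WT. Most of it came from Lyz2, at 9302 and 10411 CPM in NICcA and 11521 to 17517 CPM in WT, and without it the other 8 markers summed to 2635 and 2098 CPM in NICcA and 2286, 2109 and 2783 CPM in WT, overlapping. Summed markers of T and NK cells were at 4.10 to 4.65 CPM in NICcA and 2.48 to 2.99 CPM in WT, and those of B cells and erythroid cells were at or below 1.08 CPM in every library. The B cell gene Pax5, the erythroid gene Hbb-b1 and the mast cell gene Mcpt4 were each at 0 in 4 of 5 libraries. Samples are bulk RNA, in which fewer cells of a type and less RNA per cell cannot be told apart.

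The comparison asked which of the 37 genes differed between NICcA and WT macrophages. Of the 6 enzymes of serine, asparagine and proline synthesis 5 (all but Pycr1), and with them the mitochondrial one-carbon enzymes, the leucine transporter Slc7a5 and the stress effectors Chac1 and Sesn2 were higher in both NICcA libraries than in all WT libraries. Atf4 itself and Ddit3 overlapped between the genotypes, Atf3 and Cebpg were lower in both NICcA libraries, and 8 of 12 tRNA synthetases overlapped. Of all 13341 genes tested, 18.3% were higher and 18.5% lower in both NICcA libraries. The other 8428 overlapped, a share near that of the synthetases. All 37 members passed the filter on low counts, although 4 of them were below 1 CPM in most libraries.

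None of these differences passed the test over all genes. By the quasi-likelihood test of edgeR, adjusted after Benjamini and Hochberg, 0 of 37 members had an adjusted p under 0.05, against 4 of 13341 genes (0.03%), and the smallest adjusted p among members was 0.28, for Sesn2. At an unadjusted p under 0.05, 14 members were higher in NICcA, against 7.68% of all genes, and 2 were lower, against 6.83%. DESeq2, the other count test, called 3 members higher (Sesn2, Psat1 and Aldh18a1) and 0 lower, against 2.09% and 1.94% of all genes, or 4.03% in both directions together. Limma on log2(RPKM + 1) called 0 of the 32 members that passed its own filter.

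Both NICcA libraries lay above all WT libraries for 19 of the 37 members, against 18.3% of all genes, and below them for 2, against 18.5%. The remaining 16 overlapped, against 8428 of the 13341 genes tested. On the authors' RPKM, which carry no TMM factors, the higher count was 29, against 30.4% of all genes. The median log2 fold change was 0.24 over the members and 0.003 over all genes tested, and 31 members had a positive value, against 50.5% of all genes, while 6 had a negative one, against 49.5%. A log2 fold change of at least 1, or 2-fold, was reached by 5 members (Chac1, Slc7a5, Slc1a4, Psat1 and Slc6a9), against 6.32% of all genes.

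**Figure D1:**
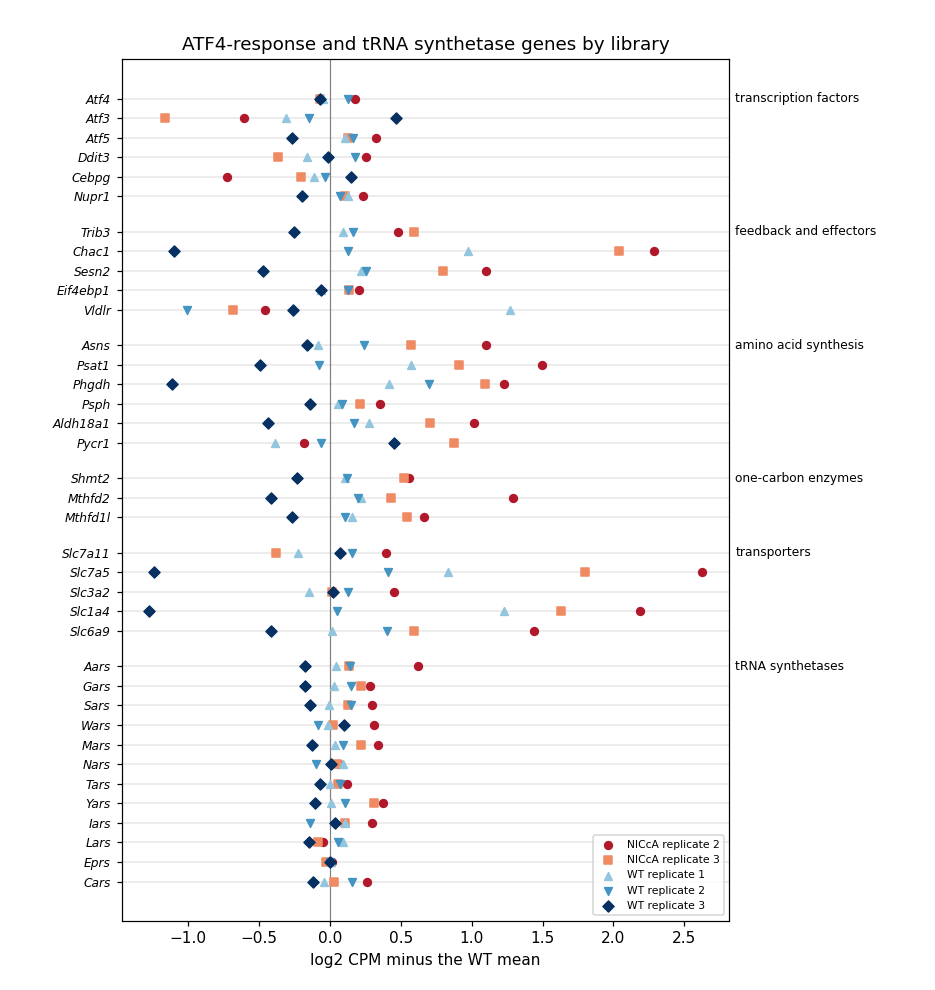
Each row is a member, grouped by role, and each point is a library's log2 CPM minus the mean of the WT libraries. NICcA replicate 2 was the highest of the 5 libraries for 30 of the 37 members, and WT replicate 3 was the lowest for 24.

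Of the 6 transcription factors, 0 lay higher in both NICcA libraries and 2 lay lower, against 18.3% and 18.5% of all genes. Their median log2 fold change was 0.01. Atf4 was at 158 and 133 CPM in NICcA replicates 2 and 3 and at 135, 153 and 133 CPM in WT replicates 1, 2 and 3. Its groups overlapped, with a log2 fold change of 0.06 (SE 0.13, edgeR adjusted p = 0.85). Ddit3, which encodes the death-promoting partner CHOP, was at 25.3 and 16.4 CPM in NICcA and at 19.0, 23.9 and 21.0 CPM in WT. The NICcA libraries were the highest and the lowest of the 5 for Ddit3, and its log2 fold change was -0.03 (SE 0.21, edgeR adjusted p = 0.95).

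Atf3, an early stress factor that mainly represses transcription, was at 238 and 161 CPM in NICcA and at 292, 326 and 499 CPM in WT. Every WT library was above both NICcA libraries, with WT replicate 3 the highest, and the log2 fold change was -0.90 (SE 0.29, edgeR adjusted p = 0.31). Cebpg, a C/EBP protein that pairs with ATF4, was at 60.5 and 87.0 CPM in NICcA and at 92.5, 97.9 and 111 CPM in WT. Its NICcA libraries lay below all WT libraries by a small margin for replicate 3, with a log2 fold change of -0.45 (SE 0.18, edgeR adjusted p = 0.34). Without NICcA replicate 2 it was -0.21 (SE 0.16) and without NICcA replicate 3 it was -0.73 (SE 0.17). Atf5, a close relative of ATF4, was at 13.6 and 11.8 CPM in NICcA and at 11.7, 12.1 and 8.98 CPM in WT, and Nupr1, a stress-induced chromatin protein, was at 10.8 and 9.97 CPM in NICcA and at 10.1, 9.72 and 8.04 CPM in WT. Both overlapped between the genotypes, with log2 fold changes of 0.22 (SE 0.17) and 0.16 (SE 0.15).

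Feedback genes and effectors of the response counted 5 members, of which 4 lay higher in both NICcA libraries, against 18.3% of all genes. Sesn2, a leucine-binding brake on mTORC1, was at 27.7 and 22.5 CPM in NICcA and at 15.0, 15.4 and 9.30 CPM in WT. Both NICcA libraries were clearly above all WT libraries, with WT replicate 3 the lowest. The log2 fold change was 0.92 (SE 0.24, edgeR adjusted p = 0.28; DESeq2 adjusted p = 0.027).

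Chac1 was a scarce transcript, with counts of 72 and 65 in NICcA and 24, 16 and 5 in WT. In CPM it was at 1.08 and 0.901 in NICcA and at 0.416, 0.218 and 0.0759 in WT. The NICcA libraries lay close together while the WT libraries spread 5.49-fold, and the log2 fold change was 2.07 (SE 0.63, edgeR adjusted p = 0.30). Without WT replicate 3 it was 1.65 (SE 0.45, edgeR adjusted p = 0.34).

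Trib3, a pseudokinase that restrains ATF4, was at 5.10 and 5.52 CPM in NICcA and at 3.89, 4.08 and 3.05 CPM in WT. The groups did not overlap, and the log2 fold change was 0.53 (SE 0.19, edgeR adjusted p = 0.33). Eif4ebp1, which encodes the translation repressor 4E-BP1, was at 32.6 and 31.1 CPM in NICcA and at 27.1, 31.0 and 27.1 CPM in WT. Its lower NICcA library was just above the highest WT library, and the log2 fold change was 0.17 (SE 0.11, edgeR adjusted p = 0.50). Vldlr, a lipoprotein receptor induced through ATF4 in other cells, was near the limit of detection, at counts of 21 and 19 in NICcA and 64, 15 and 24 in WT.

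Of the 6 amino acid synthesis genes, 5 lay higher in both NICcA libraries and 0 lower, against 18.3% and 18.5% of all genes. Their median log2 fold change was 0.85. The serine pathway starts from a glycolytic intermediate and runs through Phgdh, Psat1 and Psph. Phgdh, its first enzyme, was at 75.6 and 68.8 CPM in NICcA and at 43.0, 52.4 and 14.9 CPM in WT. WT replicate 3 stood far below the other WT libraries, which widened the error of a log2 fold change of 0.97 (SE 0.47, edgeR adjusted p = 0.38). Without WT replicate 3 the log2 fold change was 0.60 (SE 0.15, edgeR adjusted p = 0.32).

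Psat1, the aminotransferase of the second step, was at 22.4 and 14.9 CPM in NICcA and at 11.8, 7.52 and 5.63 CPM in WT. No WT library reached the lower NICcA library, and the log2 fold change was 1.17 (SE 0.34, edgeR adjusted p = 0.29; DESeq2 adjusted p = 0.037). Psph, the phosphatase of the last step, was at 7.46 and 6.76 CPM in NICcA and at 6.07, 6.21 and 5.31 CPM in WT. The order of the groups was the same but the distance small, with a log2 fold change of 0.28 (SE 0.15, edgeR adjusted p = 0.42).

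Asns, which makes asparagine from aspartate and glutamine and is a standard readout of ATF4, was at 6.12 and 4.23 CPM in NICcA and at 2.67, 3.36 and 2.53 CPM in WT. Every NICcA library was above every WT library, and the log2 fold change was 0.86 (SE 0.24, edgeR adjusted p = 0.29; DESeq2 adjusted p = 0.062). Aldh18a1, which opens proline synthesis from glutamate, was at 21.4 and 17.2 CPM in NICcA and at 12.8, 11.9 and 7.79 CPM in WT. It too was separated, with a log2 fold change of 0.84 (SE 0.24, edgeR adjusted p = 0.29; DESeq2 adjusted p = 0.047). Pycr1, the last enzyme of the proline pathway, was barely detected, at counts of 15 and 36 in NICcA and 11, 18 and 24 in WT, and its NICcA libraries differed from each other by more than 2-fold.

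**Figure D2:**
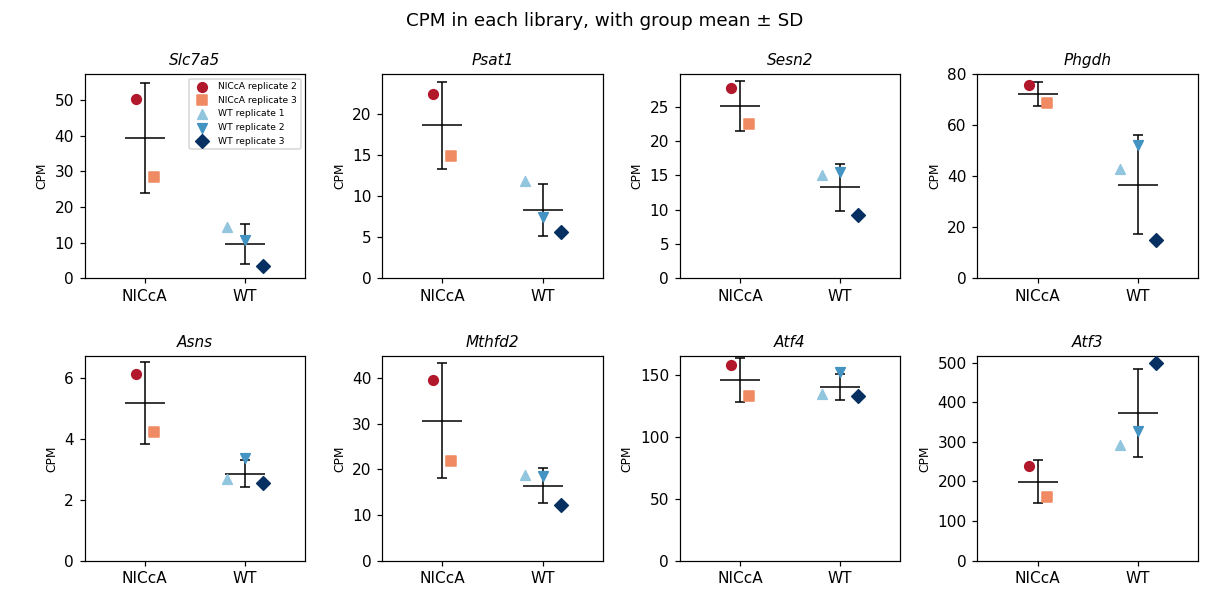
CPM of 8 members in each library, with the NICcA libraries left of the WT libraries in each panel and the horizontal bars giving group means ± SD (n = 2 NICcA and n = 3 WT). Slc7a5, Psat1, Sesn2, Phgdh, Asns and Mthfd2 had both NICcA points above all WT points, Atf4 overlapped, and Atf3 had both NICcA points below.

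The mitochondrial one-carbon enzymes pass serine carbon to folate for purine and formate production. They were higher in both NICcA libraries for 3 of 3 members, against 18.3% of all genes. Mthfd2, the dehydrogenase of the pathway, was at 39.6 and 21.8 CPM in NICcA and at 18.8, 18.5 and 12.1 CPM in WT. NICcA replicate 2 was 1.82 times NICcA replicate 3, and the log2 fold change was 0.90 (SE 0.30, edgeR adjusted p = 0.32). Without NICcA replicate 2 it was 0.40 (SE 0.29, edgeR adjusted p = 0.90).

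Mthfd1l, the formate-producing ligase, was at 13.6 and 12.5 CPM in NICcA and at 9.56, 9.23 and 7.12 CPM in WT. Shmt2, the enzyme that splits serine into glycine and a one-carbon unit, was at 15.4 and 15.0 CPM in NICcA and at 11.3, 11.4 and 8.92 CPM in WT. In both genes the NICcA libraries lay close together and apart from WT. Their log2 fold changes were 0.60 (SE 0.17) and 0.53 (SE 0.15), each at an edgeR adjusted p of 0.29.

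Among the 5 transporters, 3 lay higher in both NICcA libraries and 0 lay lower, against 18.3% and 18.5% of all genes. The median log2 fold change was 1.08. Slc7a5, the light chain of the leucine exchanger LAT1, was at 50.2 and 28.3 CPM in NICcA and at 14.5, 10.8 and 3.43 CPM in WT. The lower NICcA library was 1.96-fold above the highest WT library, and WT replicate 3 was the lowest of all. The log2 fold change was 2.04 (SE 0.57, edgeR adjusted p = 0.29; DESeq2 adjusted p = 0.12). Without NICcA replicate 2 it was 1.56 (SE 0.68) and without WT replicate 3 it was 1.64 (SE 0.30).

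Slc3a2, the heavy chain that LAT1 shares with the cystine exchanger, was at 138 and 102 CPM in NICcA and at 90.9, 110.1 and 102 CPM in WT, with overlapping groups and a log2 fold change of 0.24 (SE 0.16, edgeR adjusted p = 0.49). Slc7a11, the cystine exchanger's light chain, was at 151 and 87.96 CPM in NICcA and at 98.2, 127 and 121 CPM in WT. NICcA replicate 2 was the highest library and NICcA replicate 3 the lowest, and the log2 fold change was 0.05 (SE 0.25, edgeR adjusted p = 0.94). The difference in response between Slc7a5 and its partner was not tested.

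Slc1a4, a carrier of serine and other neutral amino acids, was at 5.82 and 3.94 CPM in NICcA and at 2.98, 1.30 and 0.501 CPM in WT. The groups did not overlap, but WT replicate 1 was nearer to NICcA replicate 3 than to WT replicate 3 on the log scale. Its log2 fold change was 1.62 (SE 0.66, edgeR adjusted p = 0.34). Slc6a9, the glycine transporter, was at 1.12 and 0.610 CPM in NICcA and at 0.399, 0.532 and 0.288 CPM in WT. It lay at the low end of detection, and the log2 fold change was 1.08 (SE 0.44, edgeR adjusted p = 0.34). Without NICcA replicate 2 it was 0.58 (SE 0.60, edgeR adjusted p = 0.91).

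Differences were small among the 12 tRNA synthetases of the response. Both NICcA libraries lay above all WT libraries for 4 of them, Yars, Mars, Gars and Iars, and below for 0, while 8 overlapped. Over all genes tested, 18.3% lay above, 18.5% lay below and 8428 of 13341 overlapped. Their log2 fold changes ran from -0.07 to 0.39 with a median of 0.19, and DESeq2 called 0. Yars, the tyrosine enzyme, was at 35.05 and 33.5 CPM in NICcA and at 27.1, 29.0 and 25.0 CPM in WT. The libraries of each genotype lay close together, and the log2 fold change was 0.34 (SE 0.11, edgeR adjusted p = 0.31).

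Mars, the methionine enzyme, was at 50.4 and 46.5 CPM in NICcA and at 40.9, 42.7 and 36.5 CPM in WT, and Gars, the glycine enzyme, was at 72.1 and 69.2 CPM in NICcA and at 60.5, 65.9 and 52.5 CPM in WT. Neither pair of groups overlapped, and the log2 fold changes were 0.27 (SE 0.11, edgeR adjusted p = 0.34) and 0.24 (SE 0.12, edgeR adjusted p = 0.39). Iars, the isoleucine enzyme, was at 26.1 and 22.8 CPM in NICcA and at 22.8, 19.3 and 21.8 CPM in WT, so that NICcA replicate 3 and WT replicate 1 were almost equal. Aars, the alanine enzyme, had the largest log2 fold change of the 12, at 0.39 (SE 0.18, edgeR adjusted p = 0.36), with 103 and 72.9 CPM in NICcA and 68.5, 73.3 and 58.9 CPM in WT. NICcA replicate 2 alone lay above the WT libraries.

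Wars, the tryptophan enzyme, is also induced by interferon gamma. It was at 37.0 and 30.3 CPM in NICcA and at 29.5, 28.004 and 31.9 CPM in WT, overlapping, with a log2 fold change of 0.17 (SE 0.13, edgeR adjusted p = 0.54). NICcA replicate 2, its highest library, was also the library in which the 12 interferon response genes were high, at a summed 1679 CPM, against 195 CPM in NICcA replicate 3 and 170.2 to 227 CPM in the WT libraries. The part of the interferon response in the level of Wars was not tested.

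Sars, Nars, Tars, Cars, Lars and Eprs, the enzymes for serine, asparagine, threonine, cysteine, leucine and for glutamate with proline, all overlapped between the genotypes. Their log2 fold changes lay between -0.07 for Lars (SE 0.11) and 0.21 for Sars (SE 0.12). Nars was at 124 and 123 CPM in NICcA and at 127, 111 and 119 CPM in WT. Eprs was at 102 and 99.1 CPM in NICcA and at 101, 101 and 101 CPM in WT, nearly equal in all 5 libraries.

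**Figure D3:**
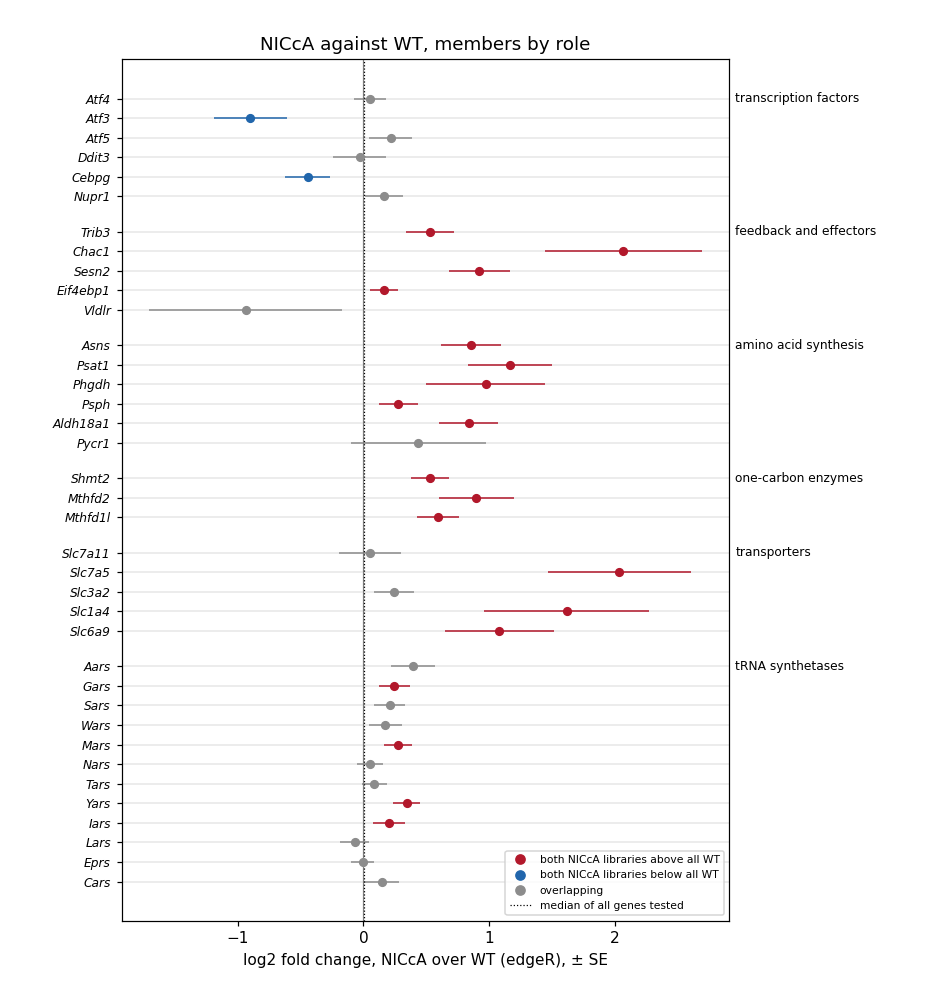
Log2 fold change of NICcA over WT ± SE for each member by role, from edgeR (n = 2 NICcA and n = 3 WT), with red for members whose NICcA libraries were both above all WT libraries, blue for both below and grey for overlapping. The 19 red members include 5 of 6 amino acid synthesis genes and 3 of 3 one-carbon enzymes, against 18.3% of all genes. Of the 12 tRNA synthetases 8 are grey, near the share of all genes, of which 8428 of 13341 overlapped.

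The libraries of a genotype differed among themselves too. The median of the members' log2 CPM minus the WT mean was 0.34 and 0.13 in NICcA replicates 2 and 3 and 0.04, 0.12 and -0.15 in WT replicates 1, 2 and 3. For the 14 enzymes and transporters it was 1.06 and 0.58 in NICcA and 0.13, 0.14 and -0.34 in WT. NICcA replicate 2 was above NICcA replicate 3 for 34 of 37 members, against 46.8% of all genes, and was the highest of the 5 libraries for 30, against 25.7% of all genes. WT replicate 3 was the lowest for 24 members, against 29.2%.

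Other measures of the libraries are given beside this. On the first principal component of all tested genes, which held 55.7% of the variance, NICcA replicates 2 and 3 lay at 53.7 and 24.1 and WT replicates 1, 2 and 3 at -1.06, -18.9 and -57.9. The 6 markers of mast cells and basophils summed to 33.0 and 28.4 CPM in NICcA and to 20.2, 17.0 and 8.04 CPM in WT. Most of it came from Cpa3 and Kit. Cpa3 was at 22.7 and 15.8 CPM in NICcA and at 10.3, 5.40 and 2.31 CPM in WT. Kit overlapped, at 9.69 and 11.9 CPM in NICcA and 9.80, 11.4 and 5.42 CPM in WT. The principal component and the mast cell sum had the same order of groups as the members, with WT replicate 3 the lowest. Neutrophil markers summed to 109.9 and 126 CPM in NICcA and to 78.6, 54.5 and 104 CPM in WT, with replicate 3 the highest of WT. The 8 dendritic cell markers summed to 1019 and 671 CPM in NICcA and to 727, 926 and 909 CPM in WT, overlapping. Most of that sum came from Itgax, at 805 and 551 CPM in NICcA and 661, 808 and 848 CPM in WT. Of the 8, 5 lay higher in both NICcA libraries, against 18.3% of all genes, and 3 overlapped. WT replicate 3 was the lowest library for 4 of the 8, against 29.2% of all genes. The 6 stromal markers summed to 14.8 and 15.3 CPM in NICcA and to 24.8, 4.45 and 1.44 CPM in WT, with WT replicate 1 the highest of the 5 libraries. Lepr gave most of the NICcA sum, at 14.3 and 14.7 CPM, and was lower in WT, at 8.66, 3.73 and 0.865 CPM. Col1a1, Col1a2 and Col3a1 were at 2.01, 5.40 and 7.27 CPM in WT replicate 1 and at or below 0.228 CPM in every other library. The part of any of these in the members' differences was not tested. The count of 19 separated members was 20 without WT replicate 3, against 21.5% of all genes. It was 20 without NICcA replicate 2 and 31 without NICcA replicate 3, against 27.7% and 32.3%. Leaving out a library can only keep or raise such a count, so none of these could have fallen below 19.

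The rest of the pathway was followed in lists written with earlier results of these data known. Of the 12 genes for eIF2, its kinases, its exchange factor and its phosphatase, 3 lay higher and 2 lower in both NICcA libraries, near the 18.3% and 18.5% of all genes, and their median log2 fold change was 0.07. Neither edgeR nor DESeq2 called any (0 of 12). At an unadjusted edgeR p under 0.05, 1 was higher and 0 lower, near the 7.68% and 6.83% of all genes. Eif2b2, a subunit of the exchange factor, was at 42.0 ± 2.99 CPM in NICcA and 28.6 ± 5.36 CPM in WT (SD, n = 2 and n = 3 here and in the rest of the text), with a log2 fold change of 0.56 (SE 0.18, edgeR adjusted p = 0.31). Eif2ak1, the kinase activated by loss of haem, differed by -0.21 on the log2 scale (SE 0.12). Eif2ak2, the kinase of viral RNA known as PKR, is itself induced by interferon and was at 69.6 and 44.3 CPM in NICcA and at 53.3, 37.0 and 42.9 CPM in WT, for a difference of 0.36 (SE 0.24). Only NICcA replicate 2, the library with the high interferon response genes, lay above the WT libraries, and the part of that response was not tested.

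Of 26 further genes linked to ATF4, 22 passed the filter on low counts, 8 lay higher and 3 lower in both NICcA libraries, against 18.3% and 18.5% of all genes, and edgeR called 0. At an unadjusted p under 0.05, 4 were higher and 0 lower, against 7.68% and 6.83% of all genes. DESeq2 called 2 higher, Ddit4 and Ndrg1, against 2.09% of all genes. Ddit4, an inhibitor of mTORC1 also known as REDD1, was at 8.20 ± 1.15 CPM in NICcA and 1.94 ± 0.947 CPM in WT. The genotypes were well separated, with a log2 fold change of 2.08 (SE 0.44, edgeR adjusted p = 0.27). Ndrg1, a stress- and hypoxia-responsive gene, was at 36.2 ± 5.39 CPM in NICcA and 19.9 ± 4.86 CPM in WT, with a log2 fold change of 0.86 (SE 0.21, edgeR adjusted p = 0.28). Jdp2, a basic leucine zipper repressor, had a log2 fold change of 1.09 (SE 0.33, edgeR adjusted p = 0.30). The median of the 22 was 0.15.

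Of the 8 other cytosolic enzyme genes, 2 lay higher and 0 lower in both NICcA libraries, against 18.3% and 18.5% of all genes, with a median log2 fold change of 0.11. Vars, the valine enzyme, was at 43.9 ± 1.45 CPM in NICcA and 27.5 ± 3.23 CPM in WT. Its log2 fold change of 0.68 (SE 0.13, edgeR adjusted p = 0.27; DESeq2 adjusted p = 0.0019) was above that of each of the 12 listed synthetases. Farsa and Hars had 0.15 (SE 0.10) and 0.12 (SE 0.11). Of the 17 mitochondrial synthetase genes, 4 lay higher and 1 lower, against the same shares, with a median of 0.11, and the log2 fold change was 0.35 (SE 0.18) for Vars2, 0.32 (SE 0.17) for Sars2 and 0.30 (SE 0.19) for Ears2. The scaffold genes of the multi-synthetase complex, Aimp1, Aimp2 and Eef1e1, had 0.15 (SE 0.11), 0.24 (SE 0.15) and 0.11 (SE 0.19). EdgeR called 0 in these 3 lists. There 1 gene, Vars, had an unadjusted p under 0.05, against 14.5% of all genes in either direction. DESeq2 called Vars alone, against 4.03%.

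Endoplasmic reticulum genes of the XBP1 and ATF6 branches, which respond to unfolded proteins beside the branch that acts through ATF4, were mostly lower. Of 14 genes, 2 (Xbp1 and Sec61b) were higher and 9 lower in both NICcA libraries, against 18.3% and 18.5% of all genes, with a median log2 fold change of -0.31. Xbp1, the transcription factor that names the branch, was at 391 and 407 CPM in NICcA and at 333, 294 and 224 CPM in WT, separated in the other direction from the median, with a log2 fold change of 0.49 (SE 0.18, edgeR adjusted p = 0.33). It and Sec61b were named after their values were seen. EdgeR called 0 of the 14, while 2 were higher and 6 lower at an unadjusted p under 0.05, against 7.68% and 6.83% of all genes, and DESeq2 called 4 lower, against 1.94%. Hspa5, the chaperone BiP, was at 840 ± 28.6 CPM in NICcA and 1190 ± 90.0 CPM in WT, with a log2 fold change of -0.50 (SE 0.13, edgeR adjusted p = 0.28; DESeq2 adjusted p = 0.0049). Dnajb9 and Dnajc3, both co-chaperones of BiP, differed by -0.61 (SE 0.14) and -0.48 (SE 0.12) on the log2 scale, each at an edgeR adjusted p of 0.28.

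**Figure D4:**
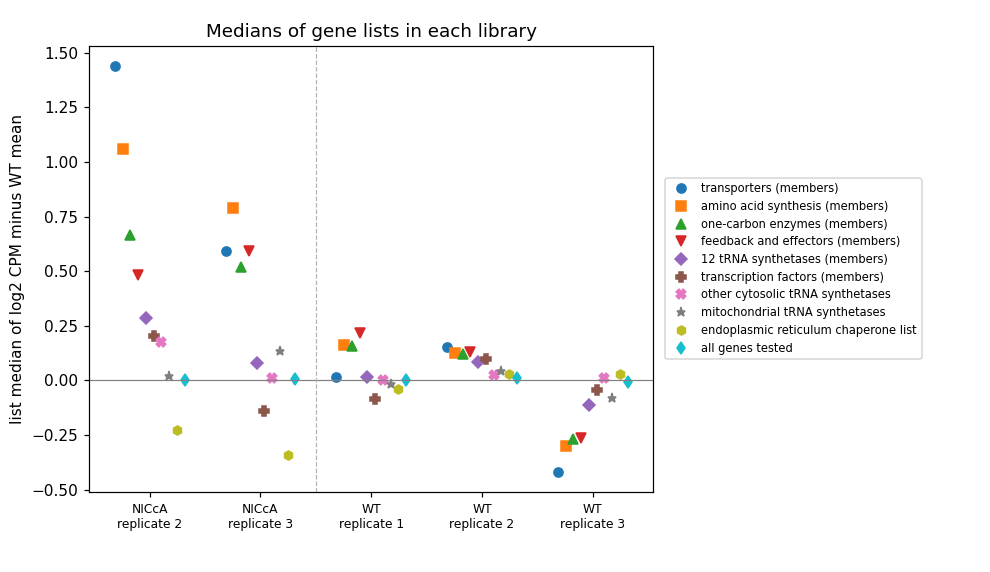
Median over each list of log2 CPM minus the WT mean, by library, with NICcA libraries left of the dashed line. Amino acid synthesis genes were at 1.06 and 0.79 in NICcA replicates 2 and 3, the 12 tRNA synthetases at 0.29 and 0.08, and the endoplasmic reticulum list at -0.23 and -0.34, against 0.003 and 0.007 for all genes tested.

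Levels between genes can be set side by side only per length of transcript, for which the authors' RPKM (reads per kilobase of transcript and per 1000000 reads) served. By the mean of the 5 libraries Atf3 and Atf4 were the most abundant members, at of 86.1 and 72.1 RPKM in NICcA and 148 and 64.1 RPKM in WT. Nars, Slc3a2 and Eif4ebp1 came next, at 27.7 to 39.7 RPKM in NICcA and 22.8 to 35.4 RPKM in WT. Phgdh stood above the other serine enzymes, at 32.9 RPKM in NICcA and 15.5 RPKM in WT, while Psat1 was at 6.93 and Psph at 3.95 RPKM in NICcA and at 2.88 and 3.01 RPKM in WT. Asns was scarce, at 2.29 RPKM in NICcA and 1.17 RPKM in WT. Chac1, Slc6a9, Pycr1 and Vldlr were all below 1 RPKM in both genotypes.

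**Figure D5:**
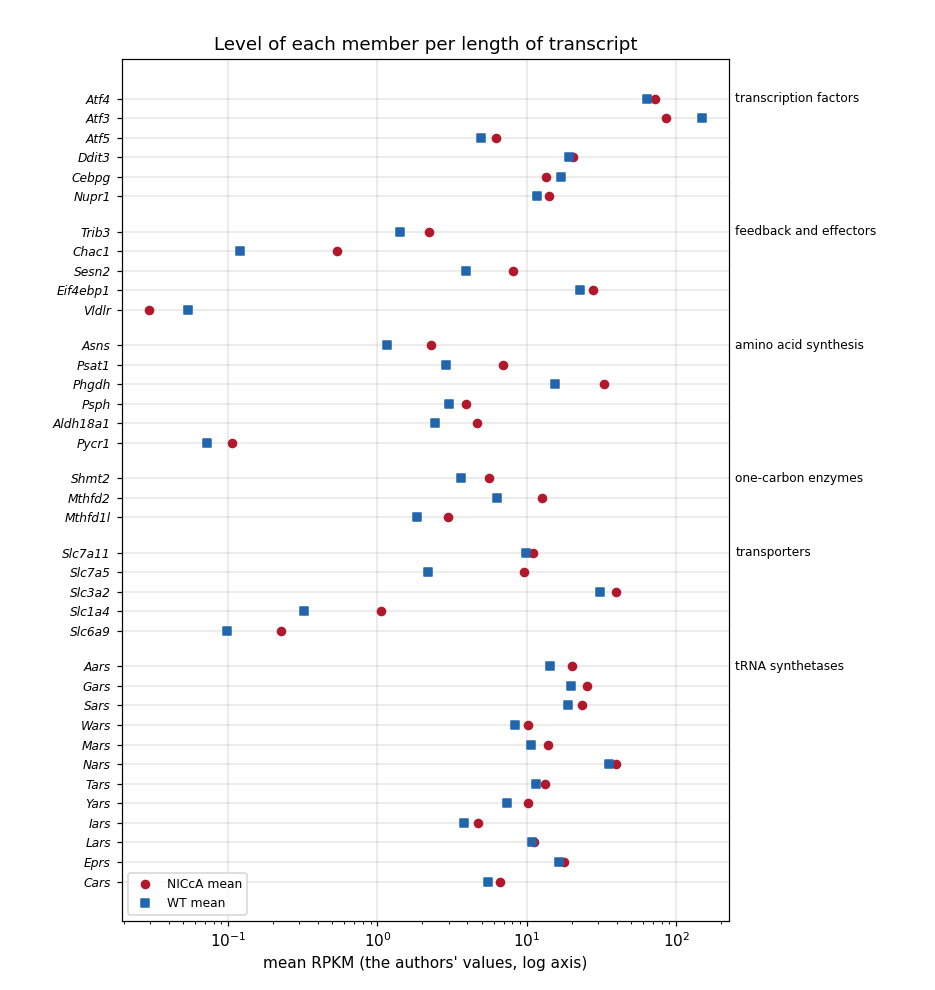
Mean RPKM of each member in NICcA (circles, n = 2) and WT (squares, n = 3) on a log axis, from the authors' values, which carry no TMM factors. The members ran from 0.03 RPKM for Vldlr in NICcA to 148 RPKM for Atf3 in WT.

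Some members share reads or exons with other features. For 11 of the 37 the table holds several transcript rows. In Wars the 3 rows gave log2 fold changes of 0.17 to 0.18. Atf5, Ddit3, Mars, Shmt2, Slc6a9 and Yars have exons that overlap a protein-coding gene on the opposite strand in GENCODE M21, among them Ddit3 and Mars with each other. The strand setting of the counting is not given in the sources used here, so reads of such pairs cannot be told apart. Aars has exons that overlap the protein-coding gene Exosc6 on the same strand, where a strand setting would not separate the reads.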

How the data were processed

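The 5 RNA libraries were read on an Illumina HiSeq, per the labels' protocols. Bowtie 0.12.2 and mouse build mm8 appear, with no role, in the submitters' processing notes. Of the counting tool and its strand setting nothing is given in the sources used here. The deposited table gives, per the file headers, the authors' raw read count and RPKM for 27457 RefSeq transcript rows. A second table of RPKM values alone was not used here. Counts were fitted as deposited with edgeR 4.0.16 in R 4.3.3 (TMM, filterByExpr, glmQLFit and glmQLFTest, genotype as the only term), and p-values were adjusted by Benjamini-Hochberg over 18267 rows (13341 genes). Each gene was then read from its row with the highest mean count. Each SE was obtained as the size of the log2 fold change over the root of its F statistic. Library differences used log2 CPM with a prior count of 2. The fit was tested on simulated data. Members and lists were chosen with earlier results of these data known. Named genes were all members and, of each other list, up to 3 with the smallest p at a mean of at least 1 CPM; the exceptions are marked in the text. Cell type lists are given as sums. Alternatives were RLE or no scaling, other filters, 1 row per gene, DESeq2 1.42.0, limma 3.58.1 on log2(RPKM + 1) and each library left out. A replicate block on replicates 2 and 3 of each genotype was another. Promoters came from RefSeq (GRCm38.p6), a build other than that of the files, and carry no values of the files.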

Additional observations from a re-analysis of the deposited data

How the results depend on the processing

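EdgeR called 0 members under every alternative that used it, limma on RPKM called 0, and DESeq2 called 3. The median log2 fold change of the members stayed positive under all 13 alternatives, from 0.13 without NICcA replicate 2 to 0.35 with no scaling factors, which moved the median of all genes to 0.11. The count of members with both NICcA libraries above all WT libraries was 19 with TMM or RLE and 29 with no scaling factors. It was also 29 on RPKM, an alternative chosen after seeing the data. The share of all genes moved too, from 18.3% with TMM and 18.5% with RLE to 29.2% with no scaling factors and 30.4% on RPKM. With 1 library left out the count of members ranged from 20 to 31 and the share of all genes from 21.5% to 32.3%. That step can only keep or raise both, so it is no check on a single library. Over all genes, edgeR called 4, 11 without the filter on low counts, 0 without NICcA replicate 2 or WT replicate 2 and 44 without NICcA replicate 3, while limma called 2 and DESeq2 527. The replicate number was also used as a block, although the labels do not tie it to a shared animal or day. That fit held only replicates 2 and 3 of each genotype, so WT replicate 1 was left out. In it edgeR called 0 genes and 0 members, and the members' median was 0.27. Deviations of same-numbered libraries from their group means correlated at 0.20 and 0.17. With 2 NICcA libraries these deviations mirror each other, so the correlations are not independent of each other.

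Of the 37 members, 30 kept the sign of their log2 fold change under all alternatives and 7, none of them called, did not. With no scaling factors and on RPKM, Ddit3 was at 0.073 and 0.055, Eprs at 0.10 and 0.10 and Lars at 0.032 and 0.042. With a filter of at least 1 CPM in 2 libraries Eprs was at 0.00033. With the replicate block, which leaves out WT replicate 1, Slc7a11 was at -0.10 and Vldlr at 0.062. Without WT replicate 1 and with no block, Slc7a11 was at -0.048 and Vldlr at 0.028. With 1 library left out the log2 fold change ranged from -0.077 to 0.18 for Atf4, -0.38 to 0.25 for Ddit3, -0.031 to 0.019 for Eprs, -0.25 to 0.89 for Pycr1, -0.39 to 0.39 for Slc7a11 and -1.34 to 0.028 for Vldlr. The cause was not tested. With 2 NICcA libraries, leaving 1 out assumes that the lone library varies like the WT libraries, and members below 1 CPM are limited by their counts.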
